A study of Mus musculus with 12 samples.

Results

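The set of genes described here joined 3 kinds of nuclear genes for mitochondrial proteins: genes of the respiratory chain, of the mitochondrial ribosome and of protein import. Members were the probe sets whose single platform gene symbol begins with Nduf, Cox and a digit, Atp5, Uqcr, Sdha to Sdhd, Mrpl or Mrps and a digit, Timm or Tomm. Where a gene had several probe sets, that of highest mean signal over the arrays stood for it. This gave 58 genes, with 73 probe sets, of 9611 genes with 1 symbol on the array. The respiratory chain held 25 of them, and the ribosome and import held 33. RNA of sorted mouse thymocytes was measured on 12 Affymetrix MOE430B arrays in 4 groups of 3 biological replicates. The groups were single-positive cells of TCR:HEL mice, single-positive cells of TCR mice, and double-positive cells of each. All mice were of B10 background, 6 to 8 weeks old and untreated. TCR mice carried a transgenic T cell receptor, and TCR:HEL mice were transgenic for HEL as well. The labels describe single-positive cells as CD4+, those of TCR:HEL mice as under negative selection and those of TCR mice as under positive selection. The receptor's specificity, the promoter that drives HEL and the number of mice behind a replicate are not given in the sources used here.

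In the respiratory chain, complexes I to IV pass electrons from NADH and succinate to oxygen and most of them pump protons, and complex V uses the proton gradient to make ATP. A few subunits of these complexes are encoded in mitochondrial DNA and are made by the mitochondrial ribosome, whose proteins (Mrpl in the large and Mrps in the small subunit) are all nuclear. Nuclear-encoded proteins enter through the translocase of the outer membrane (Tomm) and those of the inner membrane (Timm). In the thymus, double-positive cells include dividing blasts and resting cells awaiting selection, and developing T cells rely in part on oxidative metabolism.

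Promoters of a few members are shown because the letters of 3 motifs, searched near the starts of all members found, were held by part of them. In RefSeq windows of GRCm38.p6, 300 bases long from 250 before to 50 after the start, 46 of the 58 members were found. A few motifs known from such promoters were searched on both strands. They were GCGCATGCG for NRF1, a transcription factor of respiratory genes, CCGGAAG for ETS factors such as GABP, and AAGATGGCG for YY1. The ETS letters were in 18 of the 46 member promoters (39.1%), against 11.9% of 17492 protein-coding genes and 9.12% of all 27025 genes. The YY1 letters were in 7 (15.2%), against 1.94% and 1.49%. The NRF1 letters were in 3 (6.52%), against 2.41% and 1.81%. At least 1 motif was in 24 member promoters (52.2%), against 15.3% of protein-coding and 11.8% of all genes. Matches of ETS and YY1 that shared bases were found in 0 member promoters and in 0 of all 27025. The set of promoters is stated to be incomplete, so whether promoters outside it hold such matches is not known. A match describes letters only.

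The 4 promoters printed belong to Ndufs4, the single member called in the comparisons below, and to Ndufc2, Mrpl9 and Mrps6, chosen after their values were seen because they came next by p in the stage comparisons. Each runs 5′ to 3′ along the gene's strand, with motif letters in capitals. Ndufs4 lies at chr13:114388045-114388344 on the minus strand, Ndufc2 at chr7:97399753-97400052, Mrpl9 at chr3:94443086-94443385 and Mrps6 at chr16:92058086-92058385, these 3 on the plus strand.
Ndufs4: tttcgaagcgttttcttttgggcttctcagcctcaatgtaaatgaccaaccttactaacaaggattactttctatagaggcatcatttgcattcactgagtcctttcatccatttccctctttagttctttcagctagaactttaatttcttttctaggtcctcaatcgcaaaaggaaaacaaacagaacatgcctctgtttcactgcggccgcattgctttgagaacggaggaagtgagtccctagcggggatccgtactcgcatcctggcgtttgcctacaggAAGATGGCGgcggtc
Ndufc2: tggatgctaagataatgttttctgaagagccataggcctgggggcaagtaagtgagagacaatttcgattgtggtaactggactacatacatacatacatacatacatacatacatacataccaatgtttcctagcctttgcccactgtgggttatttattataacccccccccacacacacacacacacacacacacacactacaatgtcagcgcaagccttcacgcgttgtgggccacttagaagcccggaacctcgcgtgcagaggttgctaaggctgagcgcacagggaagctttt
Mrpl9: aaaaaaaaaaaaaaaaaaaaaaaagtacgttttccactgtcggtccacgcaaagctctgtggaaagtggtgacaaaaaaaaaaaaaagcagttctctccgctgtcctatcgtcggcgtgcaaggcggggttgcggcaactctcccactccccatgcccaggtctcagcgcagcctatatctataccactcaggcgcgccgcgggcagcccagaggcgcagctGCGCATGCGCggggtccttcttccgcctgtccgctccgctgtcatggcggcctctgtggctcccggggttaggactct
Mrps6: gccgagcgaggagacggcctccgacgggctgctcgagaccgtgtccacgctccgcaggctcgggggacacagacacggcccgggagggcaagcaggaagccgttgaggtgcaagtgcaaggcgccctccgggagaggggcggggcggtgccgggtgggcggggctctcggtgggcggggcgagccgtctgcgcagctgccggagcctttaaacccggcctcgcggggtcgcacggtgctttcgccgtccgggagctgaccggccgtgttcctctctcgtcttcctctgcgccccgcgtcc
The Ndufs4 window held the YY1 letters on its own strand, 36 bases after the start. The Mrpl9 window held the NRF1 letters on both strands, from 28 bases before the start, as overlapping matches of 1 palindrome-like run. The windows of Ndufc2 and Mrps6 held none of the 3 motifs.

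Values were MAS5 signals, an intensity on a linear scale, and tests were run on log2(signal + 16) over 13703 probe sets that passed a filter on low signal. Fold changes are on that scale, which understates changes of low genes. Of the 58 members 47 passed, namely 18 of the respiratory chain and 29 of the ribosome and import. By role these were 9 of 11 of complex I, 2 of 2 of complex II, 1 of 1 of complex III, 5 of 8 of complex IV and 1 of 3 of complex V. They were also 16 of 17 large-subunit and 9 of 10 small-subunit ribosomal genes, 2 of 2 inner-membrane and 2 of 4 outer-membrane import genes. The other 11, Atp5g1, Atp5g2, Cox16, Cox6a2, Cox7b2, Mrpl54, Mrps26, Ndufa4l2, Ndufab1, Tomm20l and Tomm70a, had mean signals of 10.4 to 56.8. A gene can pass the filter through 1 group alone, so counts over the 47 describe them and not all 58. Median signals per array were 62.9 to 81.3. Arrays of 1 group correlated at r = 0.816 to 0.892, and arrays of different groups at r = 0.736 to 0.91.

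The arrays were hybridized in 3 periods, which went largely with stage. Period 1 held replicate 1 of both single-positive groups. In period 2 were 5 of the 6 double-positive arrays and, of the single-positive ones, TCR replicate 2. The rest were in period 3. Replicate 1 of 3 groups (TCR:HEL single-positive, TCR single-positive and TCR double-positive) was lowest in the Gapdh 5′ to 3′ ratio, a measure of RNA integrity, at 0.0856, 0.0379 and 0.107, and the remaining arrays lay at 0.195 to 0.453. Of 8 double-positive markers only Cd8a was on the array, with mean signals of 1118 in TCR:HEL and 651 in TCR single-positive cells, and of 5612 in TCR:HEL and 7311 in TCR double-positive cells. Of 6 single-positive markers Bcl2 was measured, with 1405 to 2135, 1112 to 2394, 645 to 1216 and 426 to 813 in the same order of groups. In that order, the summed signals of the 8 cycling-cell markers measured, of 10 listed, were 5044 to 8975, 1152 to 3300, 22250 to 25060 and 26840 to 29020, with no overlap between groups. The sums for 3 of 9 B cell markers were 336 to 508, 209 to 360, 545 to 597 and 327 to 382. For 5 of 10 thymic stroma markers they were 1219 to 1679, 2088 to 3824, 1256 to 3088 and 640 to 2162. Most of that sum was 1 probe set, that of Epcam, with group means of 1213, 2749, 1718 and 1356. Over the 12 arrays Dcn, Foxn1, Col1a2 and Psmb11 had means of 78.7, 46.6, 22.7 and 17.6, and of these only Dcn passed the filter. No listed marker of dendritic cells, erythroid cells or granulocytes was measured. The part of B cell and stroma signals in the members' values was not tested.

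The first question was how the set changes from the double-positive stage under positive selection. In TCR mice most members had lower signals in single-positive cells, but 1 of the 47 passed the test, the complex I gene Ndufs4. Across the set 30 members had a negative and 17 a positive log2 fold change, with a median of -0.31, where all 13703 probe sets were positive in 54.3% of cases and had a median of 0.05. The median was -0.43 over the respiratory chain (12 of 18 negative) and -0.21 over the ribosome and import (18 of 29 negative). Over the 58 members with no filter, 33 were negative with a median of -0.18. Within hybridization period 2, which held 1 single-positive and 3 double-positive TCR arrays, 27 of the 47 were negative with a median of -0.12. There the median was -0.35 over the respiratory chain and -0.08 over the ribosome and import (15 of 29 negative). Limma called 2.42% of all probe sets lower and 3.53% in either direction, and 1 of 47 members (2.13%) lies at these shares. At an unadjusted p under 0.05 there were 2 positive and 11 negative members, against 6.61% and 7.35% of all probe sets. Values of the groups did not overlap, with single-positive cells lower, in 13 members (27.7%), against 8.81% of all probe sets. Single-positive cells were higher without overlap in 1 member, Ndufb4, against 8.20% of all. In whole-population RNA of this kind, fewer cells of a type and less RNA per cell cannot be told apart. The cycling markers moved with the same contrast, with all 8 called lower, and their part in the members' values was not tested.

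Ndufs4 encodes an accessory subunit of complex I that is needed for its assembly and activity. Its signals were 88.9, 80.4 and 78.7 in TCR single-positive cells, against 162, 179 and 198 in TCR double-positive cells. Every single-positive array lay below every double-positive array. Ndufs4 fell by 0.99 on the log2 scale (SE 0.24, limma adjusted p = 0.0316), with means of 82.6 ± 5.48 and 180 ± 18.3 (SD, n = 3 each). The fold change was -1.02 within period 2. The adjusted p was 0.169 with the period as a block, 0.0947 without the 3 arrays of lowest Gapdh ratio, 0.0532 to 0.111 when any of the 6 TCR arrays was left out, and 0.0506 when TCR:HEL double-positive replicate 2 was. Testing all probe sets unfiltered gave 0.0624.

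Among the other complex I genes 4 had an unadjusted p under 0.05 with a negative fold change and 1 with a positive one. The largest difference was that of Ndufc2, a subunit of the membrane arm. Its signals were 1703, 3137 and 1065 in TCR single-positive cells, against 3459, 10522 and 4566 in TCR double-positive cells. The groups did not overlap, and replicate 2 was the highest array of both. The fold change was -1.61 ± 0.43 (SE, adjusted p = 0.0536), or -0.81 within period 2. The assembly factors Ndufaf2 and Ndufaf6 had -0.81 ± 0.31 and -1.35 ± 0.49, and the subunit Ndufa3 had -0.68 ± 0.31, each without overlap. Ndufb4 ran the other way at 0.85 ± 0.34 (adjusted p = 0.248), with 172, 108 and 81.2 in single-positive against 60.9, 68.2 and 44.2 in double-positive cells. Ndufb2 had 0.28 and Ndufb8 -0.73, so the subunits of complex I did not share 1 direction.

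For complex II, Sdhaf3, an assembly factor for the iron-sulfur subunit of succinate dehydrogenase, had signals of 156, 200 and 129 in TCR single-positive cells, against 271, 412 and 297 in TCR double-positive cells. No single-positive array reached the lowest double-positive one. The fold change was -0.95 ± 0.29 (adjusted p = 0.101). The catalytic subunit gene Sdha had 0.68 ± 0.50, with 188, 299 and 511 in single-positive against 286, 308 and 68.7 in double-positive cells, so its groups overlapped. Without double-positive replicate 3 the fold change of Sdha was 0.05. For complex III the hinge protein gene Uqcrh had -0.61 ± 0.43, with 1489, 3610 and 1985 against 2179, 7292 and 2393. Its value on double-positive replicate 2 stood far above the rest. Without that array the fold change of Uqcrh was -0.05, and within period 2 it was 0.10. Complex V was represented by Atp5j2 alone, with -0.40 ± 0.26, or -0.08 within period 2.

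The genes tested for complex IV, cytochrome c oxidase, were Cox10, Cox11, Cox18, Cox20 and Cox8c, with fold changes between -0.36 and 0.59 in TCR cells. Roles followed the gene symbol, so assembly factors were counted with their complex. Cox18, which inserts a core subunit into the membrane, had 741, 638 and 584 in single-positive against 895, 779 and 855 in double-positive cells, without overlap (-0.36 ± 0.22, adjusted p = 0.527). Cox10, a gene of heme A synthesis, had 723, 878 and 840 against 650, 831 and 766, and these overlapped (0.12 ± 0.24). Another probe set of Cox10 gave -0.62, so its probe sets disagreed in sign.

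In the mitochondrial ribosome, the small subunit had 7 of 9 negative fold changes (median -0.32) and the large subunit 8 of 16 (median -0.04). Mrpl9, of the large subunit, had 1691, 1610 and 1285 in TCR single-positive against 3067, 3216 and 2448 in TCR double-positive cells. The groups were well apart, with a fold change of -0.92 ± 0.25 (adjusted p = 0.0537) and -0.84 within period 2. Mrps27, a small-subunit protein that binds RNA, had 432, 499 and 257 against 836, 1047 and 565. Its highest single-positive value lay below the lowest double-positive one (-1.02 ± 0.35, adjusted p = 0.146). Mrps23 had -0.65 ± 0.25 and Mrps5 -0.32 ± 0.25, both without overlap. Mrps10 had -0.95 ± 0.33, while its other probe set gave 0.41. Against this, Mrpl15 had 559, 263 and 371 in single-positive and 323, 161 and 110 in double-positive cells (1.01 ± 0.40, adjusted p = 0.240), with overlap. Mrpl27, also of the large subunit, had 958, 2551 and 1488 against 2087, 5115 and 1429 (-0.68 ± 0.43). Its fold change was -0.16 without double-positive replicate 2 and 0.04 within period 2.

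Among import genes, Timm21 and Timm50, which belong to the inner-membrane translocase for presequence proteins, had -0.49 ± 0.33 and -0.29 ± 0.25. Tomm40l, a relative of the outer-membrane channel protein, had 376, 352 and 270 in TCR single-positive against 510, 485 and 570 in TCR double-positive cells. These did not overlap (-0.63 ± 0.26, adjusted p = 0.256). The receptor gene Tomm20 had 0.06 ± 0.28.

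**Figure D1:**
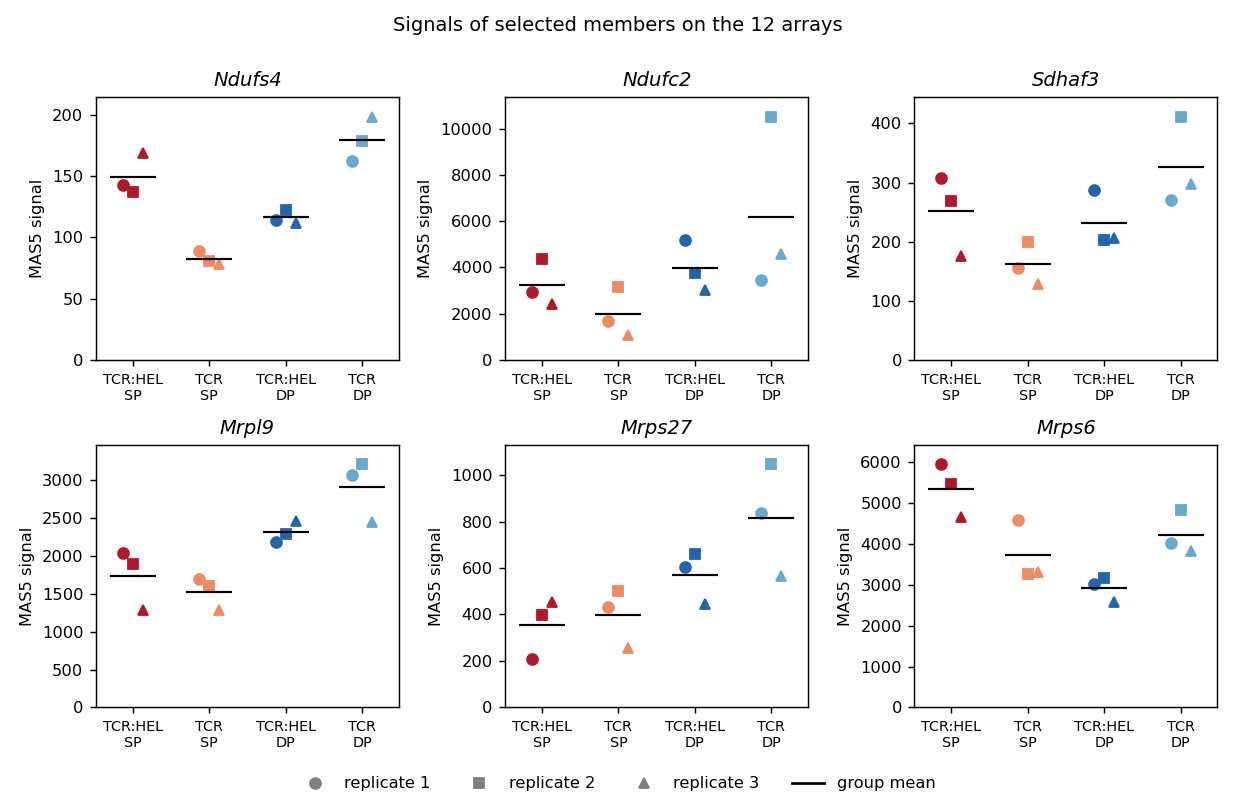
MAS5 signals (linear y axes from 0) of 6 members on each array, by group. Symbols mark the replicate numbers and black lines the group means. Ndufs4, Ndufc2, Sdhaf3, Mrpl9 and Mrps27 had no overlap between TCR single-positive and TCR double-positive arrays, and Mrps6 had none between TCR:HEL single-positive and TCR:HEL double-positive arrays.

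Members were also described by their mean signal in the stage comparison of TCR mice. With a threshold of 200 on the mean signal, set after the data were seen, 22 of 29 brighter members were negative with a median of -0.40, where the 4816 probe sets of that range had a median of 0.00. Of the 18 dimmer members 8 were negative, with a median of 0.07, against 0.07 over the 8887 probe sets there. The difference between brighter and dimmer members was not tested, and Ndufs4, the member that was called, and Ndufa3 are among the dimmer ones.

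The same stage comparison was made under negative selection, in TCR:HEL mice. There 28 of 47 members had a negative fold change (median -0.11, against 0.03 and 52.3% positive among all probe sets), and 0 were called, where limma called 1.98% of all probe sets. At an unadjusted p under 0.05 there were 2 positive and 3 negative members, against 6.14% and 6.31% of all. The respiratory chain was split, with 9 positive and 9 negative (median 0.03), and the ribosome and import had 19 of 29 negative (median -0.15). Single-positive cells were lower without overlap in 4 members (Cox18, Cox20, Mrpl21 and Mrpl9) and higher in 4 (Mrps31, Mrps6, Ndufb4 and Ndufs4), against 8.87% and 9.77% of all probe sets. Of the 8 cycling markers, 5 were called lower in this contrast.

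Mrps6, of the small subunit, had 5949, 5451 and 4645 in TCR:HEL single-positive against 3014, 3159 and 2571 in TCR:HEL double-positive cells. All single-positive arrays were higher. The fold change was 0.87 ± 0.23 (limma adjusted p = 0.0772), and 0.96 within period 3. Mrps6 was called under quantile normalization (1.01, adjusted p = 0.0121) and with the replicate block (adjusted p = 0.0479). It stayed uncalled in 23 of 25 other settings, with an adjusted p of up to 0.239. Mrps31, a further small-subunit gene, had 124, 115 and 120 against 76.7, 47.3 and 92.6, also without overlap (0.66 ± 0.29, adjusted p = 0.352). Cox20, a chaperone for a core oxidase subunit, had 10.9, 34.7 and 30.1 against 72.4, 75.8 and 49.8, signals close to or under the array medians (-1.03 ± 0.43, adjusted p = 0.309). Its fold change was -0.63 with the period as a block. Ndufaf6 had 317, 445 and 93.2 against 416, 604 and 615 (-1.11 ± 0.49). The fold change of Ndufaf6 was -0.50 without single-positive replicate 3, its lowest array, and -1.54 without replicate 2. Mrpl21 had 330, 376 and 296 against 492, 511 and 455 (-0.53 ± 0.24). Ndufs4 had 143, 137 and 169 against 114, 122 and 112, which put single-positive cells above double-positive ones (0.32 ± 0.24, adjusted p = 0.665).

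Fold changes below 0 in both genotypes without overlap were seen for Cox18 and Mrpl9. Mrpl9 had 2045, 1891 and 1291 in TCR:HEL single-positive against 2193, 2292 and 2462 in TCR:HEL double-positive cells (-0.43 ± 0.25). Ndufb4 was higher without overlap in both, with 0.70 ± 0.34 in TCR:HEL and 0.85 in TCR cells. None of these 3 genes passed in either genotype.

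**Figure D2:**
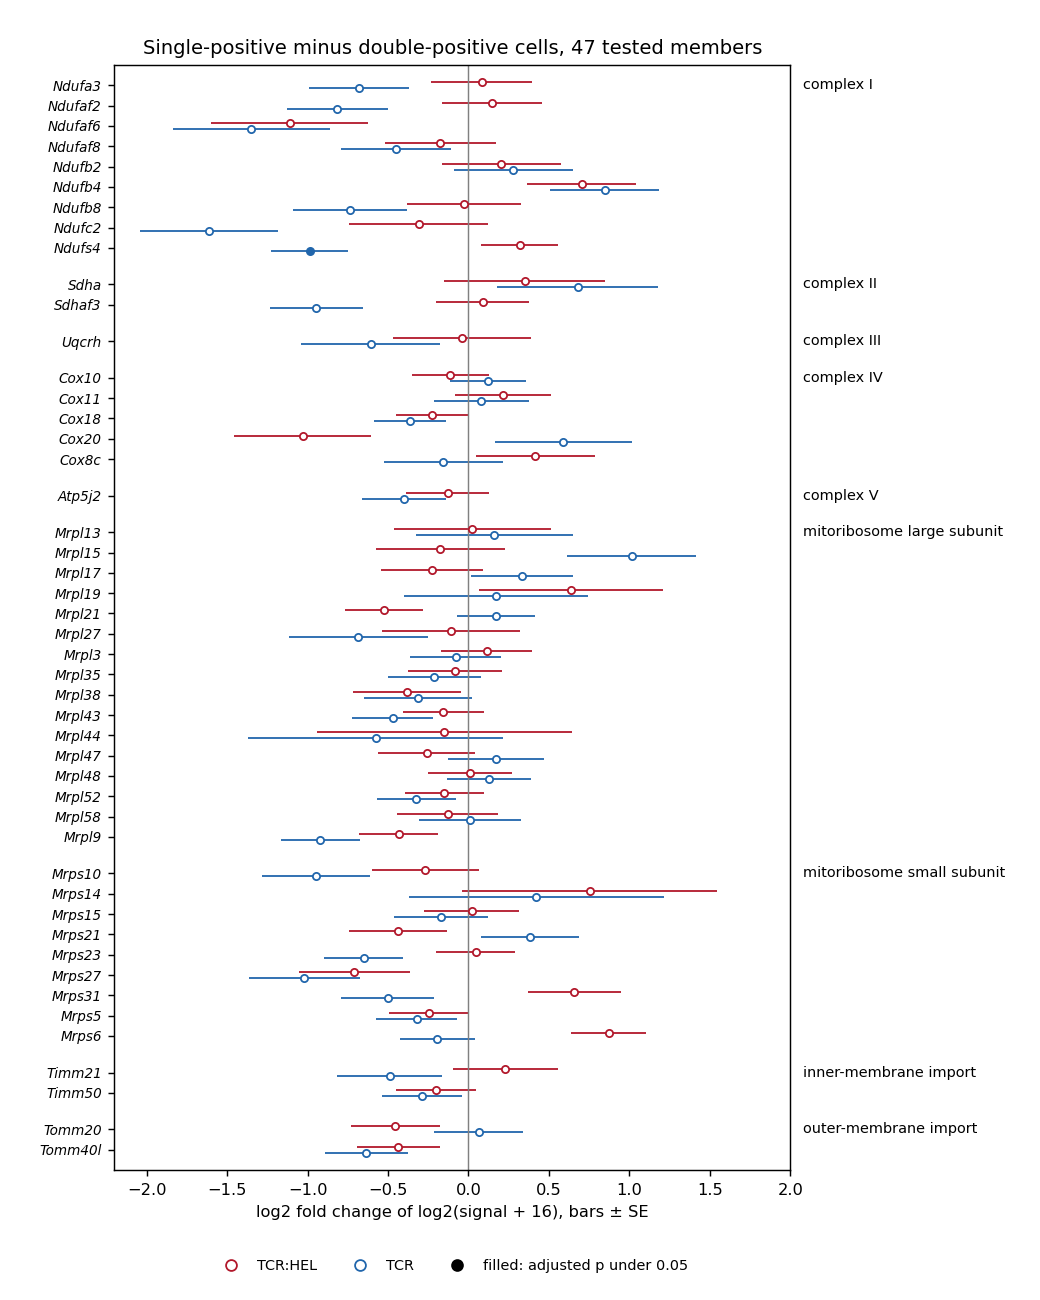
Log2 fold change of single-positive against double-positive cells for the 47 tested members, grouped by role, in TCR:HEL (red) and TCR mice (blue), with bars of 1 SE. The only filled point, Ndufs4 in TCR mice, marks an adjusted p under 0.05. In TCR mice 30 members lie left of 0, and in TCR:HEL mice 28.

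TCR:HEL and TCR single-positive cells were then compared, that is, cells under negative and positive selection. Respiratory chain members had slightly higher mean log2 signals in TCR:HEL cells, with 17 of 18 positive and a median of 0.29, and 0 members passed. These members were measured on the same arrays and do not count as replicates. By array, the median respiratory deviation was -0.06, 0.25 and -0.20 in TCR:HEL against -0.26, -0.04 and -0.36 in TCR cells, so the groups overlapped. All 47 members had a median of 0.18 with 34 positive, against a median of 0.01 and 51.5% positive among all probe sets. The ribosome and import had 17 of 29 positive and a median of 0.12. Limma called 0.219% of all probe sets in this comparison. At an unadjusted p under 0.05 there were 2 positive members, Ndufs4 and Mrps6, and 3 negative ones, Cox20, Mrpl21 and Mrps21, against 4.01% and 3.17% of all probe sets. Groups did not overlap in 5 members with TCR:HEL higher (Mrpl35, Mrps31, Mrps6, Ndufs4 and Timm50) and in 4 with TCR:HEL lower (Cox20, Mrpl17, Mrpl21 and Mrps21), against 5.74% and 4.89% of all probe sets. The respiratory median was 0.31 within period 1 (12 of 18 positive) and 0.30 within period 3 (15 of 18 positive), while leaving out replicate 2 of the TCR:HEL single-positive arrays gave 0.11. The ribosome and import median was -0.08 within period 1 and 0.14 within period 3, while leaving out replicate 1 of the TCR single-positive arrays gave 0.0006. The 8 cycling markers measured had fold changes of 0.82 to 2.45 in this comparison, with a median of 1.35. All 8 had an unadjusted p under 0.05, 7 were higher in TCR:HEL without overlap, and 0 were called. Their part in the members' values was not tested.

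All 9 complex I genes had a positive fold change in this comparison, from 0.02 for Ndufb4 to 0.81 for Ndufc2, with a median of 0.38. Ndufs4 had 143, 137 and 169 in TCR:HEL single-positive against 88.9, 80.4 and 78.7 in TCR single-positive cells. The lowest TCR:HEL array stood well above the highest TCR array, with a fold change of 0.74 ± 0.24 (adjusted p = 0.401), 0.60 within period 1 and 0.83 within period 3. Ndufc2 had 2922, 4368 and 2429 against 1703, 3137 and 1065, with overlap (0.81 ± 0.43, adjusted p = 0.753). Sdhaf3 had 308, 269 and 176 against 156, 200 and 129 (0.58 ± 0.29), and Uqcrh 1921, 3863 and 3132 against 1489, 3610 and 1985 (0.37 ± 0.43). With single-positive arrays matched by replicate number, Ndufc2, Sdhaf3 and Uqcrh were higher in TCR:HEL in 3 of 3 pairs each. So were 6 of 18 respiratory members (33.3%), 8 of 29 ribosome and import members (27.6%) and 14 of all 47 (29.8%), against 15.2% of all probe sets. Cox20, Mrpl15, Mrpl17, Mrpl19, Mrpl21 and Mrps21 were higher in 0 of 3 pairs, a direction for which no share of all probe sets was computed. With the number as a block the adjusted p was 0.475, 0.585 and 0.805 for the 3 genes. The respiratory gene with a negative fold change was Cox20, with 10.9, 34.7 and 30.1 against 78.2, 98.7 and 40.6 (-1.09 ± 0.43, adjusted p = 0.563).

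Ribosomal genes had fold changes of both signs between the single-positive groups. Mrps6 had 5949, 5451 and 4645 in TCR:HEL against 4578, 3260 and 3320 in TCR cells, where the lowest TCR:HEL value only just exceeded the highest TCR value (0.53 ± 0.23, adjusted p = 0.656). Mrpl35, of the large subunit, had 164, 177 and 160 against 109, 144 and 93.0 (0.49 ± 0.29). In the other direction Mrpl21 had 330, 376 and 296 against 475, 559 and 526 (-0.62 ± 0.24, adjusted p = 0.563), and Mrps21 had 147, 119 and 198 against 276, 271 and 223 (-0.69 ± 0.31, adjusted p = 0.656). Both were free of overlap. Timm50 had 735, 852 and 769 in TCR:HEL against 712, 560 and 712 in TCR cells, a narrow separation (0.25 ± 0.25).

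Between TCR:HEL and TCR double-positive cells 20 members were positive and 27 negative, with a median of -0.11 (all probe sets 52.4% positive, median 0.02). Limma called 0 members and 0% of all probe sets. Ndufs4, Mrps31 and Mrps6 had an unadjusted p under 0.05, all with TCR:HEL lower, against 1.19% of all probe sets lower and 1.28% higher. The respiratory median was -0.20 (11 of 18 negative) and that of the ribosome and import -0.07, but they were 0.0441 and 0.0372 without TCR double-positive replicate 2. TCR:HEL was lower without overlap in 5 members (Mrps23, Mrps31, Mrps6, Ndufa3 and Ndufs4) and higher in 1 (Cox20), against 3.92% and 3.75% of all probe sets. Ndufs4 had 114, 122 and 112 in TCR:HEL against 162, 179 and 198 in TCR cells (-0.56 ± 0.24, adjusted p = 1.00). Mrps31 had 76.7, 47.3 and 92.6 against 152, 97.4 and 142 (-0.75 ± 0.29), and Mrps6 had 3014, 3159 and 2571 against 4010, 4829 and 3828 (-0.53 ± 0.23). Mrps23 had 818, 913 and 956 against 1075, 1632 and 1053 (-0.45 ± 0.25). Tomm20 had 340, 312 and 233 against 164, 290 and 175, with overlap (0.49 ± 0.28).

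**Figure D3:**
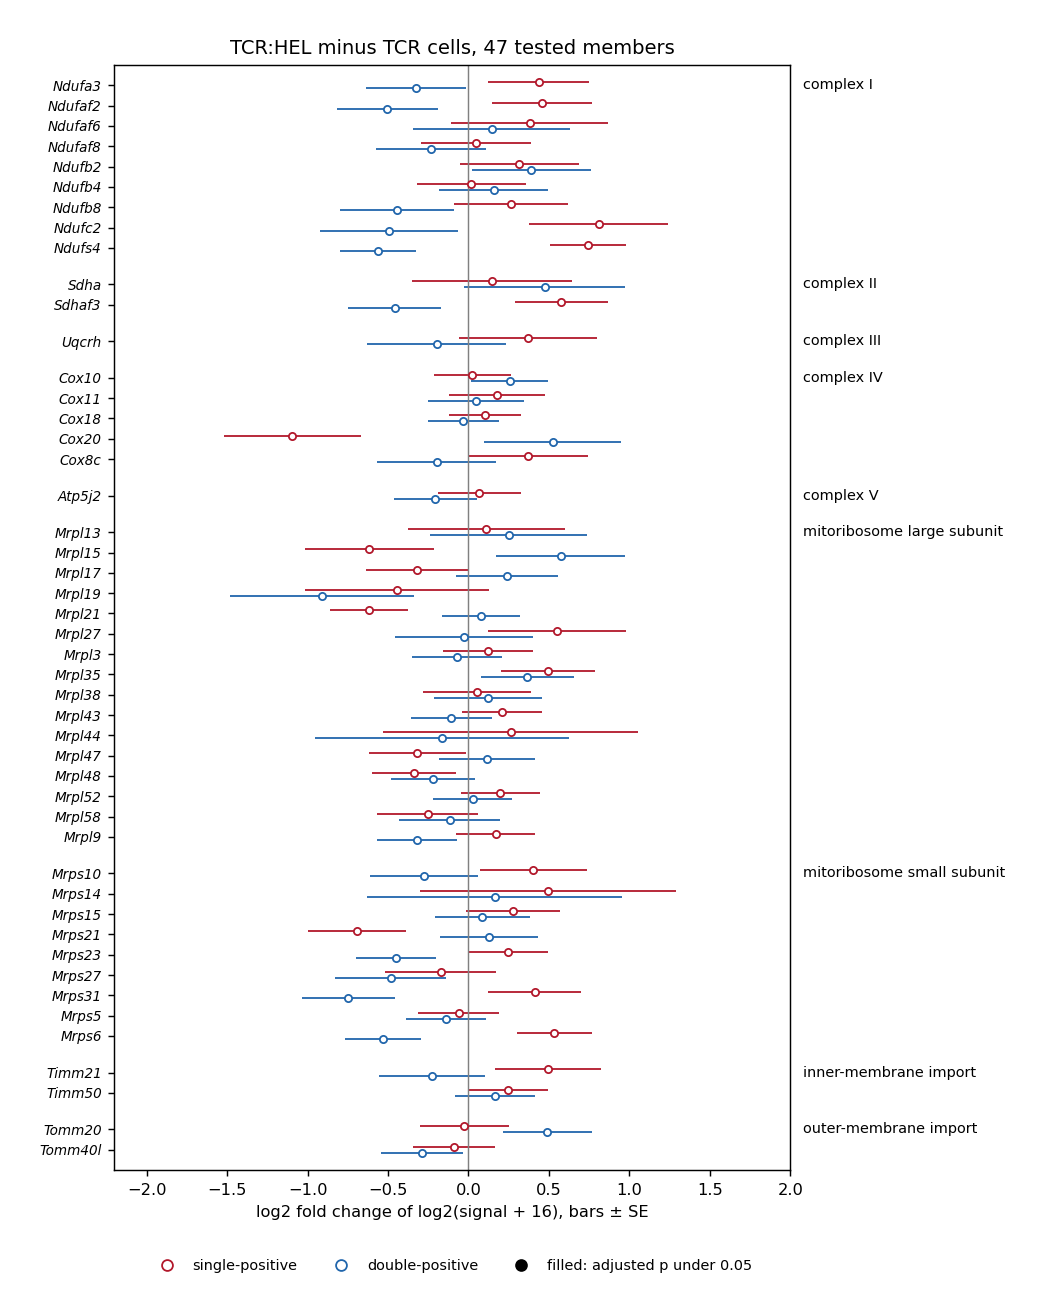
Log2 fold change of TCR:HEL against TCR cells for the 47 tested members, grouped by role, in single-positive (red) and double-positive cells (blue), with bars of 1 SE. No point is filled, since 0 members had an adjusted p under 0.05. In single-positive cells 17 of 18 respiratory members lie right of 0, with Cox20 on the left.

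The interaction tested whether the difference between TCR:HEL and TCR cells differs between single-positive and double-positive cells. It was called for 0 members and for 0.0073% of all probe sets. Its value was positive in 32 members (median 0.20) and in 49.6% of all probe sets (median -0.01), and 6 members with a positive and 1 with a negative value had an unadjusted p under 0.05, against 2.49% and 1.96% of all. Ndufs4 had 1.30 ± 0.34 (adjusted p = 0.778), since TCR:HEL was the higher genotype in single-positive and the lower one in double-positive cells, without overlap in either stage. Mrps6 (1.06 ± 0.33, adjusted p = 0.938) and Mrps31 (1.16 ± 0.41) had the same layout of groups. Sdhaf3 had 1.03 ± 0.41, and Cox20 had -1.62 ± 0.60, the opposite layout. The 4 comparisons share their groups pairwise, so these values are not separate from those above.

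Levels were also followed array by array. Relative to each gene's mean over the 12 arrays, the median respiratory member stood at -0.06, 0.25 and -0.20 on the TCR:HEL single-positive arrays, -0.26, -0.04 and -0.36 on the TCR single-positive arrays, 0.00, 0.01 and 0.04 on the TCR:HEL double-positive arrays and 0.17, 0.22 and -0.04 on the TCR double-positive arrays (log2). The TCR:HEL double-positive arrays lay within 0.04 of 0. In TCR double-positive cells 26 of 47 members (55.3%) were highest on replicate 2, against 37.4% of all probe sets, and in TCR single-positive cells 25 (53.2%), against 32.4%. Replicate 3 was the lowest array in 24 members in each of these groups, a count for which no share of all probe sets was computed. It was the highest array in 14.9% of members in each, against 27.7% of all probe sets in TCR single-positive and 29.4% in TCR double-positive cells. Ndufc2, Uqcrh and Mrpl27 had 10522, 7292 and 5115 on TCR double-positive replicate 2, each the highest value of that gene on any array. The respiratory median of the stage comparison in TCR mice ran from -0.64 without TCR double-positive replicate 3 to -0.28 with another array left out, and it was -0.59 without TCR single-positive replicate 2.

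**Figure D4:**
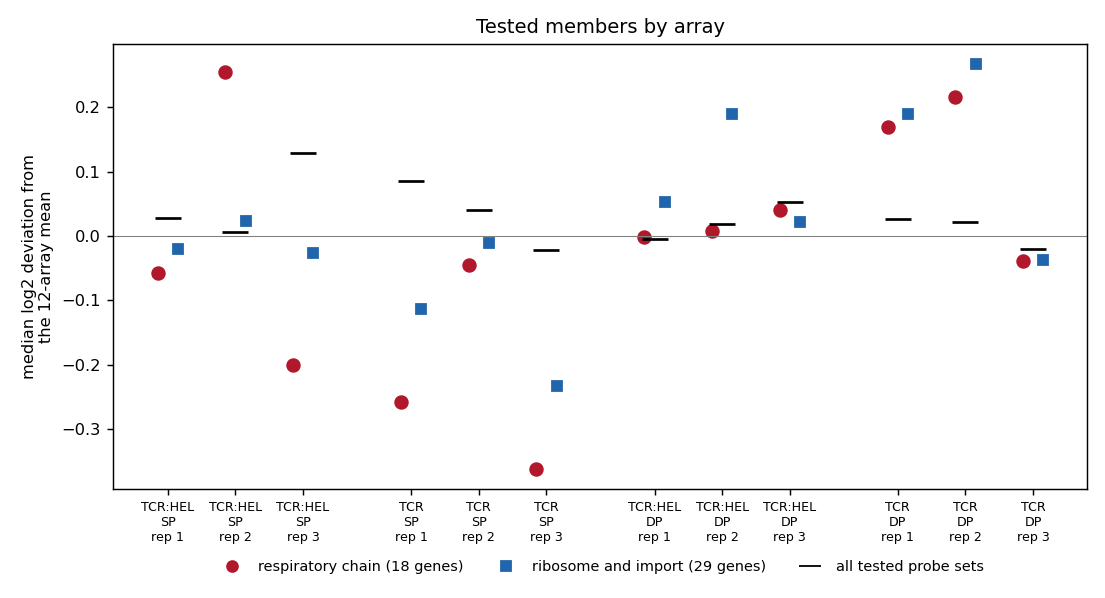
Median log2 deviation from the mean over 12 arrays, per array, for 18 respiratory chain members (red circles), 29 ribosome and import members (blue squares) and all tested probe sets (black dashes). The lowest point is the respiratory one of TCR single-positive replicate 3 (-0.36). The highest is the ribosome and import one of TCR double-positive replicate 2 (0.27), followed by the respiratory one of TCR:HEL single-positive replicate 2 (0.25).

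Other mitochondrial genes were taken from a list of import chaperones and proteases, mitochondrial translation and RNA factors, mitochondrial DNA factors, regulators, assembly factors and citrate cycle enzymes. Of 127 genes listed 54 were on the array and 43 were tested. In TCR mice 32 had lower and 11 higher signals in single-positive cells, and 2 were called lower, where 45.7% of all probe sets were negative and 2.42% called lower. In TCR:HEL mice 31 had lower and 12 higher signals, and 1 was called lower, where 47.7% of all probe sets were negative and 1.10% called lower. At an unadjusted p under 0.05 there were 1 higher and 6 lower in each genotype, against 6.61% and 7.35% of all probe sets in TCR and 6.14% and 6.31% in TCR:HEL mice. The comparisons of TCR:HEL with TCR cells and the interaction called 0 of them. Between the single-positive groups 22 were positive and 21 negative (median 0.01), where 51.5% of all probe sets were positive. Between the double-positive groups 24 were positive and 19 negative (median 0.03), against 52.4% positive. For the interaction 21 were positive and 22 negative (median -0.01), against 49.6% positive. At an unadjusted p under 0.05 limma gave 1 higher and 1 lower of the 43 between the single-positive groups, against 4.01% and 3.17% of all probe sets. It gave 1 lower between the double-positive groups, against 1.19%, and 1 with a negative value for the interaction, against 1.96%.

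Aars2, the mitochondrial alanyl-tRNA synthetase, fell in both genotypes. Its signals were 35.7, 34.2 and 31.2 in TCR:HEL single-positive against 130, 411 and 555 in TCR:HEL double-positive cells (-2.73 ± 0.41, adjusted p = 0.00194). They were 25.7, 15.3 and 31.2 in TCR single-positive against 364, 299 and 265 in TCR double-positive cells (-3.03 ± 0.41, adjusted p = 0.000414). Single-positive signals lay under every array's median, and no group overlapped the other stage. The call held in every alternative run, with an adjusted p of up to 0.0182 in TCR:HEL and 0.0127 in TCR cells. Vars2, the mitochondrial valyl-tRNA synthetase, fell in TCR cells, with 377, 194 and 175 in single-positive against 667, 533 and 840 in double-positive cells (-1.45 ± 0.30, adjusted p = 0.0127). Vars2 missed the threshold when replicate 2 or 3 of the TCR single-positive arrays was left out, with an adjusted p of 0.0538 and 0.0685, and when replicate 3 of the TCR double-positive arrays was, with 0.0658. With the hybridization period as a block, at a gap of over 30 days between periods, the adjusted p was 0.0633. In TCR:HEL cells Vars2 had 281, 289 and 229 against 573, 651 and 466 (-1.03 ± 0.30, adjusted p = 0.109). Nrf1, which encodes the factor of the motif named above, had fold changes between stages of 0.11 ± 0.33 in TCR:HEL and -0.07 ± 0.33 in TCR cells.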

How the data were processed

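The authors deposited 1 MAS5 intensity signal (linear scale) per probe set for each of 12 one-colour arrays. Per the submitters' processing notes MAS5 was used, with version and settings not given in the sources used here. Every array had a 2% trimmed mean of 150, and no further scaling was done. Per the labels' protocols, biotin labelling by a small-sample assay started from RNA of 100000 to 1000000 sorted cells. Groups came from the sample titles, since the design text calls one kind of mouse only B10.

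The 64 control probe sets were removed, and the filter kept 13703 of 22575 probe sets, those with a signal over the array median on 3 or more arrays. Limma 3.58.1 in R 4.3.3 fitted 4 group means to log2(signal + 16) on all 12 arrays, with empirical Bayes trend (degrees of freedom 8 residual, 7.01 prior). Two-sided p-values were adjusted by Benjamini-Hochberg over all 13703 probe sets within a contrast and called at an adjusted p under 0.05. The fit was also run on simulated data with 200 changed probe sets, and the outcome is not reported here. The number of arrays limits the precision.

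Members and lists were chosen with earlier results of these data known. Named were called members, the 5 members with the smallest p in each contrast and the member of highest signal in each role, others being examples of role or overlap. Probe set names ending in _s_at or _x_at, as for Ndufc2, Mrpl9, Mrps6, Uqcrh, Mrpl52 and Cox8c, mark probes that may match related transcripts. Record files gave chip lot (1) and hybridization days (8), from which periods were set by gaps over 35 days, or over 30 days as an alternative with 4 periods. Whether replicate numbers pair the arrays was checked from the correlation of deviations from group means. Same-numbered single-positive arrays correlated weakly, at r = 0.159, 0.204 and 0.188, each TCR:HEL array best with its own number. Same-numbered double-positive arrays gave -0.077, 0.124 and -0.0911. Replicate 1 of both single-positive groups shared hybridization day 1 and replicate 3 shared day 8, while replicate 2 was on days 7 and 6. For replicates 1 and 3 a pairing of samples and a shared day cannot be told apart. Alternatives changed the offset (1, 50), filter, normalization, blocks, probe set choice and arrays included. Promoter sequences are RefSeq's, GRCm38.p6. The build behind the array design is not given in the sources used here.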

Additional observations from a re-analysis of the deposited data

How the results depend on the processing

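Each result was recomputed under 25 other settings, 12 of which left out 1 array (20 settings for the overlap count, and 24 for Cox20, which the filter on 6 arrays removes). Counts of members called stayed at 0 in every setting for TCR:HEL against TCR in either stage and for the interaction. In the stage comparison of TCR mice the count of 1 became 2 with an offset of 50, with the filter on 6 arrays and with probe sets averaged per gene. It became 4 with the replicate block (Mrpl9, Mrps10, Ndufc2 and Ndufs4), and 0 with no filter, with the hybridization period as a block at either gap, without the arrays of period 1 and without the 3 arrays of lowest Gapdh ratio. Leaving out 1 array gave 0 to 2. In TCR:HEL mice the count of 0 became 1 (Mrps6) with quantile normalization and with the replicate block. By the check the numbers did not pair the stage groups of TCR mice, with r of 0.048, 0.291 and 0.00545. In TCR:HEL mice every array correlated best with its own number, at r = 0.0921, 0.105 and 0.202. That was also the outcome between the single-positive groups. For the comparison of these 2 groups the replicate block changed no call of a member. The respiratory median in TCR mice was -0.23 with no filter and -0.64 to -0.28 with 1 array left out. The ribosome and import median was -0.0292 in TCR:HEL mice with the period as a block at either gap, and 0.083 for the interaction with the 30-day gap. With 1 array left out, that interaction median ran from 0.083 to 0.25, and the respiratory one from 0.13 to 0.51. Between the single-positive groups the ranges were 0.11 to 0.32 for the respiratory chain and 6e-04 to 0.13 for the ribosome and import. Between the double-positive groups they were -0.29 to 0.0441 and -0.13 to 0.0372, with the sign turned without TCR replicate 2. For TCR:HEL mice the respiratory range was -0.0829 to 0.20. The count of 13 members lower without overlap ran from 12 to 19, but its background also changed, from 7.3% to 20.1%. The cause was not tested. The setting without the 3 arrays of lowest Gapdh ratio, the overlap counts and the counts of pairs were chosen after seeing the data. Signals near the array median limit what could be seen for the 11 members not tested and for dim ones such as Cox20.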
